A study of Mus musculus with 9 samples.

Results

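MicroRNA genes that gave a signal were examined on whole-transcript expression arrays of mouse cells. A microRNA gene was included when its probe set carried exactly 1 gene symbol of the microRNA type and its mean signal, on the linear intensity scale of the deposited values, reached 50 over the 3 arrays of at least 1 group. Of 19938 genes with a probe set of 1 symbol, 296 were microRNA genes, and 140 of these reached the threshold. In all 3 groups the threshold was reached by 104 members, in 2 groups by 16 and in 1 group by 20. The members were chosen by these mean signals, so those that passed in only some groups were bound to differ to some degree, and counts over the members describe them without supporting anything. Just inside the threshold lay Mir98 with a highest group mean of 51.0 and Mir409 with 51.8, and just outside it Mir218-2 with 48.8 and Mirlet7a-1 with 48.8.

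The groups were cells labelled inducible pluripotent stem cells derived from mouse embryonic fibroblasts (iPS), the mouse embryonic stem cell line R1, and mouse embryonic fibroblasts (MEF) kept below passage 3, the source of the iPS cells. Each group had 3 arrays, described as biological repeats. No treatment, strain, age or allele is named in the labels, nor how the iPS cells were induced, nor whether the repeats were separate derivations or clones. The p-values therefore measure the spread between these cultures, and the 3 arrays per group limit the precision. R1 and MEF served as controls for the iPS cells in the study's design.

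The labels were checked against marker genes. The summed signal of 5 pluripotency markers was 12413 to 13498 in the iPS arrays and 16639 to 18308 in the R1 arrays, against 237.6 to 276 in the MEF arrays. Zfp42 was the marker among these that was called between both stem cell groups, at 506 in iPS cells and 3539 in R1 cells. The summed signal of 5 fibroblast markers was 2506 to 2935 in the iPS arrays and 1665 to 2426 in the R1 arrays, against 21545 to 24067 in the MEF arrays. The summed signal of 5 skeletal muscle markers was 499.1 to 670.4 in iPS and 437.4 to 540.3 in R1, against 5493 to 6539 in MEF. Most of the MEF sum was Actc1, with a mean of 4881. Of the 5 markers 4 were called lower in both stem cell groups. Ckm was not called, with means of 87.57 in iPS, 77.15 in R1 and 79.93 in MEF. None of the 7 measured muscle microRNA genes reached the threshold. The part of such other cells in the differences below was not tested, and in bulk samples fewer cells of a type and less RNA per cell cannot be told apart. Within the iPS group replicate 2 stood apart in the Dlk1-Dio3 and miR-302 genes, and results on these are given with and without it.

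MicroRNAs are short RNAs that guide Argonaute proteins to messenger RNAs, mainly through their seed, the bases near the 5′ end that pair with the target. They are cut from long primary transcripts by Drosha with Dgcr8, exported by Xpo5 and trimmed by Dicer1, and many lie in clusters that are transcribed together. In pluripotent mouse cells the miR-290, miR-302 and miR-17-92 clusters and their relatives are known for seeds that promote rapid cell cycling, whereas mature let-7 is held low by Lin28 proteins. The arrays were hybridized with labelled cDNA made from total RNA, so a signal cannot be assigned to the primary transcript, the hairpin or the mature microRNA. The miR-290 cluster was not analysed here.

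Mature sequences from RefSeq (GRCm38.p6) were matched for 127 of the 140 members. They are shown for the genes on which the results turn, 5′ to 3′, with the seed (bases 2 to 8) in capitals. The first set holds arms whose seeds contain the letters AAGUGC, which was so for 6 members. They come from 4 clusters on different chromosomes: miR-17-92 (chromosome 14), miR-106a-363 (chromosome X), miR-106b-25 (chromosome 5) and miR-302 (chromosome 3).
mmu-miR-17-5p: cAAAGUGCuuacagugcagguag
mmu-miR-20a-5p: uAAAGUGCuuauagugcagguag
mmu-miR-106a-5p: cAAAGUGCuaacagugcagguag
mmu-miR-106b-5p: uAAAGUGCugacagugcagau
mmu-miR-93-5p: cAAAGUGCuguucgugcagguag
mmu-miR-302b-3p: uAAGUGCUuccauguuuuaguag
The 3p arm of Mir302c carries nearly the same letters 1 base further to the 5′ end, so that its seed as listed differs, and its 5p arm shares the seed CUUUAAC with that of Mir302b.
mmu-miR-302c-3p: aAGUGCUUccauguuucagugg
mmu-miR-302b-5p: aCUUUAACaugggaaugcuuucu
mmu-miR-302c-5p: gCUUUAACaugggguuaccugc
Arms with other seeds are shown because their genes lie in the same clusters. The seed AAGGUGC belongs to Mir18, GUGCAAA is shared by Mir19a and Mir19b-1, and AUUGCAC is shared by Mir363, Mir25 and Mir92b.
mmu-miR-18a-5p: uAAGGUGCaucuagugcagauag
mmu-miR-19a-3p: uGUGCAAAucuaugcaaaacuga
mmu-miR-19b-3p: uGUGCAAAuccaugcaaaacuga
mmu-miR-363-3p: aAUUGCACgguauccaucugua
mmu-miR-25-3p: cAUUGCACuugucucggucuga

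The members were compared as differences of mean log2(signal + 16), with the standard error of the limma fit and p-values adjusted by the Benjamini-Hochberg method over all 19938 genes. A gene was called when the adjusted p was under 0.05 and the difference was 1 or more in size. The added 16 understates the differences of dim genes. In iPS against MEF, 19 of the 140 members were called, 12 higher and 7 lower, against 12.7% of all genes, 5.08% higher and 7.58% lower. In R1 against MEF, 16 members were called, 12 higher and 4 lower, against 13.5% of all genes, 5.56% higher and 7.94% lower. In iPS against R1, 4 members were called, 2 higher and 2 lower, against 0.461% of all genes, 0.296% higher and 0.166% lower. Over all 296 measured microRNA genes, with no threshold on the signal, the counts were 20, 18 and 4. By the adjusted p alone, with no minimum difference, 70 members passed in iPS against MEF, 35 higher and 35 lower, beside 48.0% of all genes, 24.8% higher and 23.2% lower. In R1 against MEF 57 passed, 37 higher and 20 lower, beside 48.9% of all genes, 25.9% higher and 23.0% lower. In iPS against R1 19 passed, 3 higher and 16 lower, beside 8.52% of all genes, 4.12% higher and 4.40% lower. Arrays did not overlap between iPS and MEF for 36 members higher and 34 lower (27.3% and 24.9% of all genes), between R1 and MEF for 41 higher and 22 lower (29.1% and 25.3%), and between iPS and R1 for 7 higher and 28 lower (9.84% and 12.1%). With 50 added to the signal in place of 16, the calls of Mir106a, Mir125b-1, Mir28a and Mirlet7f-1 were lost in both comparisons against MEF. Also lost were those of Mir17, Mir302c, Mir323, Mir329, Mir380, Mir382 and Mir6516 in iPS against MEF. In R1 against MEF those of Mir15b, Mir218-1 and Mir708 were lost, and in iPS against R1 those of Mir302c, Mir300 and Mir380. Both comparisons against MEF use the same MEF arrays, and the 13 members called in both had the same direction in each, 10 higher and 3 lower.

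Most members did not pass the test for a call in any comparison. This was so for 117 of the 140, and for 85 the difference was below 0.5 in size in all 3 comparisons. Most genes of any kind were not called either, with 12.7%, 13.5% and 0.461% of all genes called, so the count is no result about microRNA genes. The median size of the difference was 0.26, 0.2 and 0.08 over the members and 0.18, 0.19 and 0.07 over all genes. Of the 104 members at the threshold in every group, 8 were called in at least 1 comparison. The group mean of a member ranged from 18.1 to 1153 in iPS, from 10.8 to 807 in R1 and from 8.21 to 943 in MEF, and the median coefficient of variation over the 3 arrays of a group was 9.8%. Signals of different probe sets were not ranked against each other, since probe response differs. Hairpin sequence was available for 116 members. Their median GC content was 53.2%, against 44.6% for the 142 measured microRNA genes below the threshold that had a hairpin. Over the 116 members the GC content correlated with the log2 of the highest group mean with r = 0.25. Over the 142 below the threshold r was 0.6, and across all 258 it was 0.61, where all points come from the same 9 arrays. Called members had a median GC content of 43.8% (20 genes) and the members not called 54.5% (96 genes). The part of base composition in the signals was not tested.

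**Figure D1:**
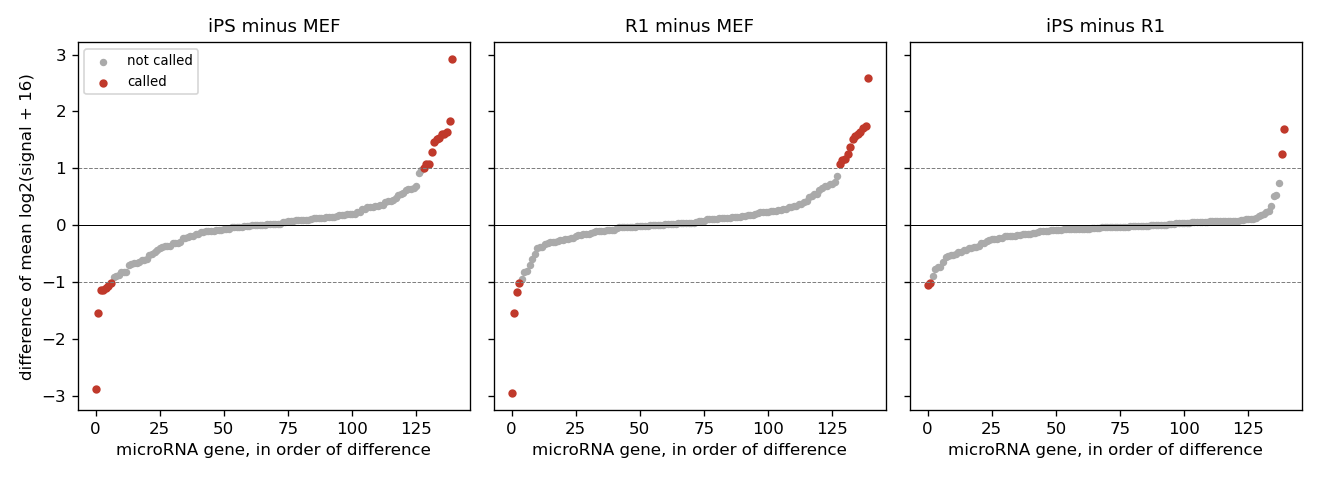
Differences of mean log2(signal + 16) for the 140 microRNA genes, each panel sorted by its own difference: iPS minus MEF, R1 minus MEF and iPS minus R1. Red points are called genes and dashed lines mark a difference of 1. Called genes number 19, 16 and 4, and most points lie near 0.

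All measured genes of the miR-17-92 cluster rose in both stem cell groups. This cluster is a polycistron known for promoting proliferation and was long studied as an oncogene. Its 5 measured genes lie within 1 kb on the plus strand, from Mir17 at chr14:115043671-115043754 to Mir19b-1 at chr14:115044305-115044391 (GRCm38.p6). They rose by 1.29 to 1.64 in iPS against MEF and by 1.52 to 1.75 in R1 against MEF, and each of the 5 was called in both comparisons whichever single array was left out. With 50 added to the signal in place of 16, the call of Mir17 in iPS was lost, at 0.95. Mir17, Mir19a and Mir19b-1 did not reach the signal threshold in MEF, so for these some difference was built into their choice.

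Mir20a had signals of 256.0, 194.0 and 242.2 in iPS and 226.0, 257.8 and 186.1 in R1, against 62.7, 66.3 and 58.9 in MEF. All stem cell arrays lay well above all MEF arrays, and iPS and R1 overlapped. The difference was 1.64 ± 0.12 in iPS against MEF (adjusted p = 1.86e-06, limma) and 1.60 ± 0.12 in R1 against MEF (adjusted p = 2.1e-06, limma). Mir18, which encodes miR-18a, had 304.4, 243.9 and 344.9 in iPS and 328.6, 385.3 and 278.2 in R1, against 91.8, 82.7 and 85.0 in MEF. It rose by 1.60 ± 0.13 in iPS and by 1.75 ± 0.13 in R1, with the same separation from MEF. Mir19a had 128.0, 98.4 and 150.1 in iPS and 135.3, 181.0 and 113.0 in R1, against 28.4, 36.0 and 32.4 in MEF, and rose by 1.54 ± 0.17 in iPS and by 1.70 ± 0.17 in R1.

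Mir19b-1 had 191.3, 127.1 and 174.9 in iPS and 163.1, 210.8 and 134.4 in R1, against 40.5, 40.8 and 46.5 in MEF. Mir17, whose 5p arm shares its seed with miR-20a, had 155.4, 103.3 and 145.0 in iPS and 167.7, 163.1 and 144.0 in R1, against 37.8, 44.6 and 52.3 in MEF. Mir19b-1 rose by 1.61 ± 0.16 in iPS and by 1.64 ± 0.16 in R1, and Mir17 by 1.29 ± 0.14 and 1.52 ± 0.14. In each of these genes the iPS and R1 arrays lay above every MEF array, and the lowest iPS array was replicate 2. Between iPS and R1 limma called none of the 5, and 0 had an unadjusted p under 0.05, with differences of -0.23 to 0.05. Mir17hg, the noncoding gene named as host of the cluster, which was named after its values were seen, had a mean of 185 ± 13.6 in iPS and 217 ± 33.8 in R1, against 75.3 ± 2.36 in MEF (SD, n = 3 each). It rose by 1.14 in iPS against MEF and by 1.34 in R1 against MEF.

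Of the paralogous miR-106a-363 cluster on chromosome X, Mir363 and Mir106a were members and rose in both stem cell groups. Both passed the signal threshold in iPS and R1 but not in MEF, so some difference was built into their choice. Mir363 had 178.5, 188.7 and 249.0 in iPS and 156.5, 154.3 and 163.1 in R1, against 13.5, 12.7 and 12.6 in MEF. The MEF arrays lay far below all the others, and the iPS arrays showed the wider spread, with replicate 3 highest. Mir363 differed by 2.92 ± 0.10 in iPS against MEF (adjusted p = 1.38e-08, limma) and by 2.59 ± 0.10 in R1 against MEF (adjusted p = 2.39e-08, limma). Between iPS and R1 it differed by 0.33 ± 0.10 with an adjusted p of 0.077. Mir106a had 40.8, 42.2 and 70.5 in iPS and 55.3, 55.7 and 49.5 in R1, against 16.9, 17.3 and 16.2 in MEF. It rose by 1.01 ± 0.14 in iPS and by 1.08 ± 0.14 in R1, and the iPS call rested on replicate 3, without which the difference was 0.81, and it was also lost without MEF replicate 3, at 0.99.

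Mir20b, Mir19b-2 and Mir92-2 of the same cluster stayed under the threshold in all groups and were not called. Their differences were 0.35, 0.55 and 0.41 in iPS against MEF and 0.30, 0.45 and 0.36 in R1 against MEF. For all 3 the stem cell arrays lay above all MEF arrays.

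The 3 genes of the miR-106b-25 cluster, the third relative of miR-17-92, were members and none was called by limma, though all 3 had an unadjusted p under 0.05 in both comparisons against MEF. They lie in an intron of Mcm7, a subunit of the replicative helicase. Mir106b had 121.9, 119.4 and 114.6 in iPS and 140.1, 149.1 and 136.2 in R1, against 71.5, 73.5 and 65.3 in MEF. Its groups did not overlap, and the difference of 0.65 ± 0.05 in iPS and of 0.87 ± 0.05 in R1 passed on the adjusted p (4.21e-06 and 4.57e-07, limma) but not on the size. Mir93 differed by 0.56 and 0.75 and Mir25 by 0.40 and 0.43 in the same comparisons. Mcm7 itself rose by 1.05 ± 0.05 in iPS and by 1.18 ± 0.05 in R1 against MEF.

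**Figure D2:**
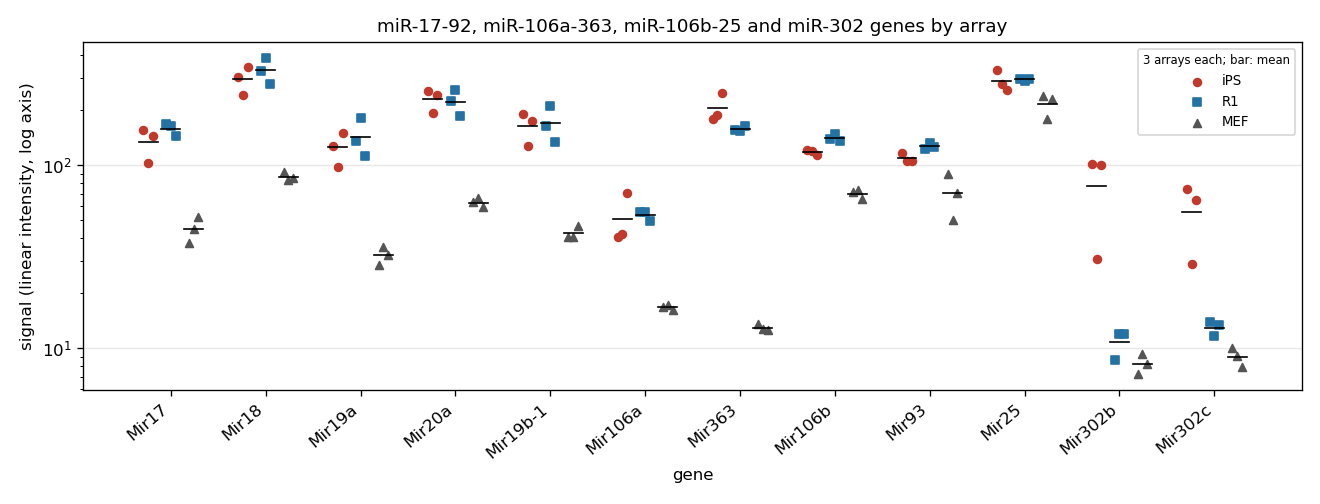
Signal (linear intensity, log axis) of members of the miR-17-92, miR-106a-363, miR-106b-25 and miR-302 clusters in each array, with iPS as circles, R1 as squares and MEF as triangles, and a bar for each group mean. The MEF mean lies lowest for every gene shown, though for Mir302b the R1 and MEF arrays overlap. In Mir302b and Mir302c the R1 arrays lie near MEF, and 1 iPS array lies between.

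Of the 5 measured genes of the miR-302 cluster, Mir302b and Mir302c reached the signal threshold, in iPS cells. Both stayed near the lowest values in R1 and MEF. This cluster, on chromosome 3 and ending with Mir367, is known from pluripotent and early epiblast cells. Mir302b had 101.1, 30.9 and 100.4 in iPS, against 8.6, 11.9 and 11.9 in R1 and 7.2, 9.3 and 8.2 in MEF. The iPS arrays lay above all others, but replicate 2 had less than the other iPS arrays by far. Mir302b rose by 1.83 ± 0.29 in iPS against MEF (adjusted p = 0.000468, limma) and by 1.69 ± 0.29 in iPS against R1 (adjusted p = 0.00858, limma), and it differed by 0.14 ± 0.29 in R1 against MEF. Mir302c had 74.5, 28.8 and 64.4 in iPS, against 13.9, 11.6 and 13.4 in R1 and 10.0, 9.1 and 7.9 in MEF.

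Mir302c, too, was lowest in replicate 2 among the iPS arrays, and there it still lay above all R1 and MEF arrays. It rose by 1.46 ± 0.21 in iPS against MEF and by 1.25 ± 0.21 in iPS against R1. Both genes passed the threshold through iPS alone, so that some difference was built into their choice. Without iPS replicate 2 the differences were 2.27 for Mir302b and 1.77 for Mir302c in iPS against MEF, and 2.13 and 1.56 in iPS against R1. Of the genes below the threshold, Mir302a rose by 1.10 in iPS against MEF, and Mir302d and Mir367 differed by 0.91 and 0.45. Replicate 2 was the lowest iPS array for all 5 genes of the cluster.

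The microRNA genes of the Dlk1-Dio3 domain on chromosome 12 made up 28 of the 140 members. The domain is imprinted: its noncoding transcripts, among them Meg3, Rian and a large array of microRNAs, are expressed from the maternal copy. Of the 28, 27 had an iPS mean below both the R1 and the MEF mean, with Mir666 as the exception. In iPS against MEF, 4 were called and all were lower (Mir323, Mir329, Mir380 and Mir382), which is 4 of 28 beside 12.7% of all genes called and 7.58% called lower, so the count by itself is no result about the domain. Mir300 and Mir380 fell in iPS against R1, beside 0.166% of all genes. By limma none was called in R1 against MEF, where 5 had an unadjusted p under 0.05. The median difference was -0.51 in iPS against MEF, -0.09 in R1 against MEF and -0.40 in iPS against R1, where the median over all genes was 0.02, 0.02 and -0.01.

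The 4 genes called lower in iPS against MEF, and Mir300, are shown with a seed each, since no seed is shared among these arms.
mmu-miR-380-3p: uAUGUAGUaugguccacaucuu
mmu-miR-382-5p: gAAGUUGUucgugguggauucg
mmu-miR-323-3p: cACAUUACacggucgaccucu
mmu-miR-329-3p: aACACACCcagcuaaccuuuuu
mmu-miR-300-3p: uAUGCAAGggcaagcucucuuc

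Mir380 had 47.5, 34.5 and 68.1 in iPS, against 121.1, 101.8 and 133.4 in R1 and 93.7, 160.9 and 131.6 in MEF. All iPS arrays lay below all others, while R1 and MEF overlapped. It fell by 1.14 ± 0.21 in iPS against MEF (adjusted p = 0.00107, limma) and fell by 1.05 ± 0.21 in iPS against R1 (adjusted p = 0.0141, limma). Mir300 had 60.5, 32.4 and 71.5 in iPS, against 119.4, 105.4 and 145.0 in R1 and 83.9, 109.9 and 94.4 in MEF. Its iPS arrays again lay below all others, with the difference of -1.01 ± 0.20 in iPS against R1 (adjusted p = 0.0151, limma) and of -0.70 ± 0.20 in iPS against MEF.

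Mir382 had 82.7, 41.6 and 73.5 in iPS, against 126.2, 117.8 and 155.4 in R1 and 128.0, 207.9 and 156.5 in MEF. It fell by 1.15 ± 0.21 in iPS against MEF and differed by -0.89 ± 0.21 in iPS against R1, with no overlap of the iPS arrays with the others. Mir329 had 97.7, 83.3 and 107.6 in iPS, against 172.4, 158.7 and 195.4 in R1 and 191.3, 227.5 and 243.9 in MEF. It fell by 1.08 ± 0.11 in iPS against MEF and differed by -0.77 ± 0.11 in iPS against R1. Mir323 had 47.5, 32.9 and 51.3 in iPS, against 58.1, 52.7 and 58.1 in R1 and 87.4, 140.1 and 110.7 in MEF. Its mean did not reach the signal threshold in iPS, so some difference was built into its choice. Here R1 lay close to iPS: the difference was -1.10 ± 0.15 in iPS against MEF and -0.81 ± 0.15 in R1 against MEF, the largest in size of the 28 in R1 against MEF.

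With the adjusted p alone and no minimum difference, 20 of the 28 were lower in iPS against MEF and 10 in iPS against R1, where 23.2% and 4.40% of all genes were lower by that rule. Of the other 112 members, 15 and 6 were lower by it. The count in iPS against R1 depended on single arrays. iPS replicate 2 was the lowest iPS array for 21 of the 28 genes, and its median signal over them was 75.6, against 105.7 in replicate 1 and 97.0 in replicate 3, 121.1 to 140.2 in R1 and 130.3 to 150.7 in MEF. Over the other 112 members the median of replicate 2 was 98.4, between the 95.0 and 109.1 of the other iPS arrays. The calls of Mir323, Mir380 and Mir382 in iPS against MEF were also lost without MEF replicate 2. Without iPS replicate 2 no member of the domain was called in any comparison, with differences of -0.99 to -0.91 for the 4 genes in iPS against MEF and of -0.76 for Mir300 and -0.88 for Mir380 in iPS against R1. In that fit 27 of 28 still had a negative difference in iPS against R1 with a median of -0.27, and the count lower by the adjusted p alone was 17 in iPS against MEF and 4 in iPS against R1. Without R1 replicate 1, or without R1 replicate 3, the count in iPS against R1 was 2. Why replicate 2 stood apart was not tested.

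Values were also listed by position within the domain. The 20 members in the stretch from Mir411 to Mir409 (chr12:109710175-109710256 for the hairpin of Mir411, GRCm38.p6, plus strand) had differences of -1.05 to 0.09 in iPS against R1, with a median of -0.52, and held 9 of the 10 genes lower by the adjusted p. Mir666, with the only positive difference, lies there too. The 5 members from Mir337 to Mir127 had -0.50 to -0.09 with a median of -0.20. Mir341 and Mir370, within Rian, had -0.12 and -0.25. These ranges overlap, and a difference between the stretches was not tested. Rian, a noncoding RNA of the domain, fell by 1.69 ± 0.11 in iPS and fell by 1.20 ± 0.11 in R1 against MEF, and differed by -0.49 ± 0.11 in iPS against R1. Meg3 fell by 1.07 in iPS against MEF and differed by -0.80 in R1 against MEF.

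**Figure D3:**
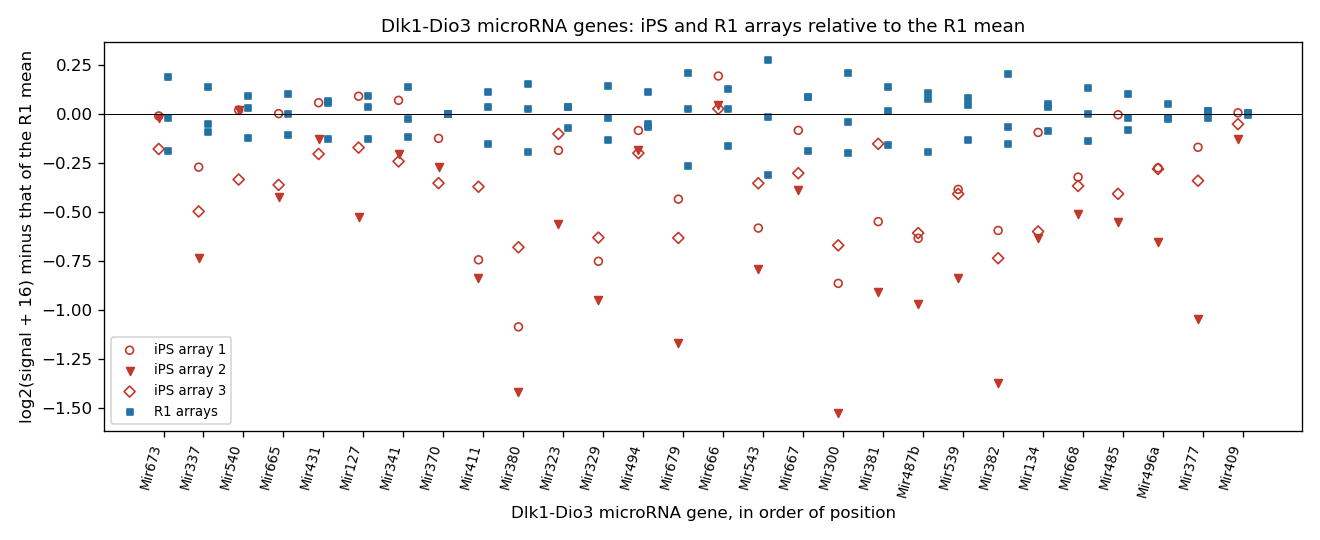
The 28 Dlk1-Dio3 microRNA genes in order of position. Each point is 1 array, as log2(signal + 16) minus that of the R1 mean: iPS arrays in red (replicate 2 filled triangles) and R1 arrays as blue squares. iPS points lie mostly below 0, furthest for replicate 2, which is the lowest iPS array for 21 of the 28.

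Among members higher in MEF, Mir145a stood furthest from the stem cell groups. Mir145a and its neighbour Mir143 are known from smooth muscle and other mesenchymal cells. Mir145a had 39.1, 40.2 and 27.3 in iPS and 39.1, 32.9 and 27.5 in R1, against 362.0, 335.5 and 398.9 in MEF. The MEF arrays lay far above all stem cell arrays, which overlapped, and Mir145a fell by 2.89 ± 0.12 in iPS (adjusted p = 4.05e-08, limma) and fell by 2.96 ± 0.12 in R1 (adjusted p = 3.05e-08, limma). Mir143 had 59.7, 61.0 and 55.3 in iPS and 69.6, 58.1 and 57.7 in R1, against 129.8, 99.0 and 141.0 in MEF. It was not called, at -0.89 ± 0.11 and -0.83 ± 0.11.

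Mir125b-1, whose product belongs with miR-125a to a family related to worm lin-4, had 18.4, 21.0 and 15.8 in iPS and 20.0, 18.8 and 17.1 in R1, against 82.7, 97.7 and 75.1 in MEF. It fell by 1.55 ± 0.09 in iPS and fell by 1.54 ± 0.09 in R1, whereas Mir125a, with the same seed CCCUGAG, differed by -0.13 and -0.15. Mir28a had 18.8, 17.1 and 18.5 in iPS and 14.5, 14.3 and 14.7 in R1, against 50.6, 57.7 and 51.3 in MEF. It fell by 1.02 ± 0.05 in iPS and fell by 1.18 ± 0.05 in R1, and the iPS call was lost without iPS replicate 2 or MEF replicate 2. Both genes, like Mir145a, passed the signal threshold through MEF alone.

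Mir28a shares the seed AGGAGCU with Mir708, which was named after its values were seen and moved the other way. Mir708 reached the signal threshold in iPS and R1 but not in MEF, and Mir28a in MEF alone. Some difference in opposite directions was therefore built into their choice. Mir708 had 51.6, 61.4 and 57.3 in iPS and 93.1, 81.6 and 82.7 in R1, against 30.7, 26.9 and 29.7 in MEF. It rose by 1.17 in R1 against MEF, and it differed by 0.69 in iPS against MEF and by -0.48 in iPS against R1 (adjusted p = 0.00271, limma), with no overlap between any groups. Mir218-1 had 47.5, 35.3 and 46.5 in iPS and 37.3, 38.3 and 32.2 in R1, against 83.9, 97.0 and 85.6 in MEF. It fell by 1.01 ± 0.09 in R1, a call lost without R1 replicate 3 or MEF replicate 2, and differed by -0.83 ± 0.09 in iPS. Mir218-1, too, passed the signal threshold through MEF alone, so some difference was built into its choice. Mir221, Mir31 and Mir196a-1, also named after their values were seen, differed by -0.87, -0.66 and -0.67 in iPS against MEF and by -0.95, -0.70 and -0.60 in R1 against MEF, and none was called.

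The let-7 family, whose mature forms mark differentiated cells, had 6 members, which share the seed GAGGUAG.
mmu-let-7f-5p: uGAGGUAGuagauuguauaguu
Mirlet7f-1 had 117.8, 91.8 and 125.4 in iPS and 91.8, 163.1 and 103.3 in R1, against 37.8, 51.3 and 43.4 in MEF. Its mean reached the signal threshold in iPS and R1 but not in MEF, so some difference was built into its choice. It rose by 1.08 ± 0.18 in iPS and by 1.14 ± 0.18 in R1, with all stem cell arrays above all MEF arrays, and the R1 call was lost without R1 replicate 2. Mirlet7d, Mirlet7g and Mir98 differed by 0.62, 0.63 and 0.53 in iPS against MEF and by 0.61, 0.72 and 0.34 in R1 against MEF. None of these was called. Mir98 passed the signal threshold through iPS alone, so some difference was built into its choice. Mirlet7e had 102.5, 102.5 and 97.0 in iPS and 95.0, 91.8 and 95.7 in R1, against 140.1, 117.8 and 170.1 in MEF, a difference of -0.43 ± 0.10 and of -0.51 ± 0.10. Mirlet7i overlapped between all groups, at -0.09 and -0.12. Over the 10 measured let-7 genes 1 was called in each comparison against MEF, near the 12.7% and 13.5% of all genes, and limma called none in iPS against R1, where 1 had an unadjusted p under 0.05.

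**Figure D4:**
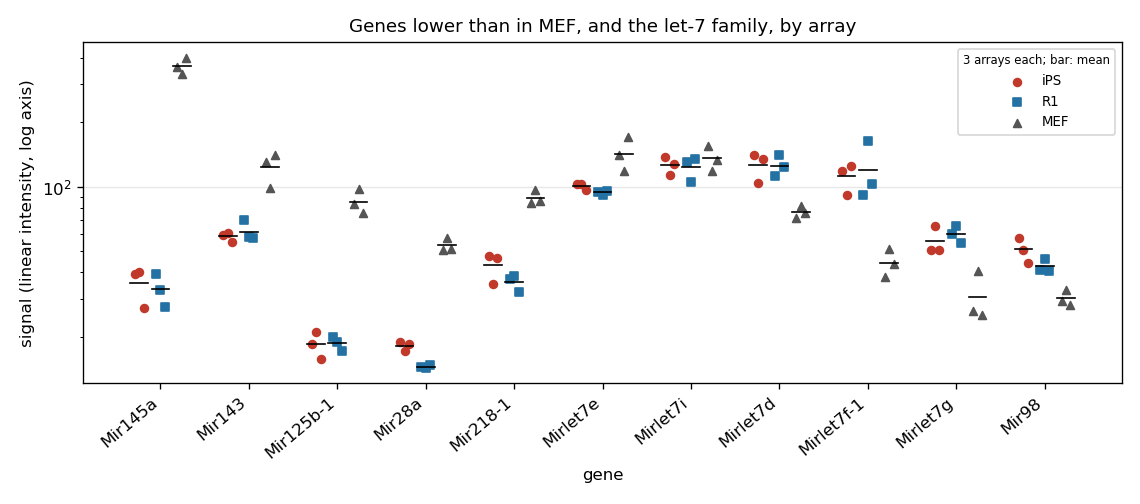
Signal (linear intensity, log axis) in each array of 5 microRNA genes with lower signal in iPS and R1 than in MEF, and of the 6 let-7 members; bars are group means. For Mir145a the iPS and R1 arrays lie at or below 40.2, against 335.5 to 398.9 in MEF. Among the let-7 genes Mirlet7e lies higher in MEF, and Mirlet7f-1 lies lower in MEF.

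Of the miR-15 and miR-16 family, which restrains cell cycle genes and shares the seed AGCAGCA, 6 members were measured. Mir15b had 69.6, 83.9 and 83.9 in iPS and 93.1, 132.5 and 103.3 in R1, against 29.0, 37.0 and 31.1 in MEF. Its mean reached the signal threshold in iPS and R1 but not in MEF, so some difference was built into its choice. All 3 groups were apart, and it rose by 1.37 ± 0.12 in R1 (adjusted p = 4.73e-06, limma), with 0.97 ± 0.12 in iPS against MEF. Its cluster neighbour Mir16-2 differed by 0.44 in iPS and by 0.68 in R1, while Mir195a and Mir497 differed by less than 0.1 in size in every comparison.

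Mir677 and Mir6516 rose in both stem cell groups. Mir677 had 256.0, 319.6 and 282.1 in iPS and 298.2, 347.3 and 247.3 in R1, against 88.0, 97.7 and 81.6 in MEF. It rose by 1.52 ± 0.12 in iPS and by 1.57 ± 0.12 in R1, while Atp5b, the mitochondrial ATP synthase gene that contains it, differed by 0.15 and 0.18. Mir6516 had 377.4, 494.6 and 404.5 in iPS and 505.0, 439.6 and 491.1 in R1, against 194.0, 187.4 and 194.0 in MEF. It rose by 1.08 ± 0.09 in iPS and by 1.25 ± 0.09 in R1, and the iPS call was lost without iPS replicate 2, at 0.97. The groups of stem cells overlapped for both genes and lay above all MEF arrays.

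Mir297b and Mir669b were named after their values were seen. Mir297b had 101.8, 40.5 and 95.0 in iPS, against 32.2, 43.4 and 39.1 in R1 and 31.8, 30.3 and 33.1 in MEF. It passed the signal threshold through iPS alone, so some difference was built into its choice. Mir669b had 121.9, 67.6 and 95.0 in iPS, against 60.1, 60.1 and 59.7 in R1 and 49.5, 53.1 and 60.1 in MEF. Replicate 2 was the lowest iPS array for both and for Mir297b lay within the R1 range, and neither was called, with differences of 0.92 and 0.63 in iPS against MEF and of 0.74 and 0.52 in iPS against R1. Both belong to a repeated family of near-identical hairpins in the Sfmbt2 gene, so their probe sets cannot be told apart from other copies. Sfmbt2, a Polycomb gene, rose by 3.12 in iPS against MEF, by 1.68 in R1 against MEF and by 1.44 in iPS against R1, with 1323.4, 739.3 and 781.4 in iPS, 317.4, 357.1 and 310.8 in R1 and 90.5, 86.2 and 97.0 in MEF. The part of Sfmbt2 in the signals of these microRNAs was not tested.

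Of the members named for high signal, Mir598 had a mean of 602 ± 59.9 in iPS and 554 ± 15.5 in R1, against 443 ± 42.0 in MEF (SD, n = 3 each). Mir320 differed by 0.32 in iPS and by 0.23 in R1 against MEF, Mir346 by 0.16 and 0.11, and Mir341 by -0.16 and -0.04. Mir692-1 had 1120.6, 1105.1 and 1234.7 in iPS, against 608.9, 955.4 and 855.1 in R1 and 962.1, 982.3 and 885.3 in MEF. The R1 arrays spread widely and none of these 5 was called. Mir692-1 has near-identical copies, so its value is uncertain. Mir199a-1 and Mir200a, the single members of their families, differed by -0.19 and 0.20 in iPS against MEF and by -0.23 and 0.24 in R1 against MEF.

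A total of 74 members belonged to the lists of clusters and families, and 66 to none. Of these 66, Mir218-1, Mir28a, Mir6516, Mir677 and Mir708 were called in at least 1 comparison. The other 61 differed by -0.41 to 0.92 in iPS against MEF, by -0.39 to 0.69 in R1 against MEF and by -0.38 to 0.74 in iPS against R1. Mir34a, a target of p53 known for restraining pluripotency, had 33.1, 36.3 and 39.9 in iPS, against 47.8, 65.3 and 56.9 in R1 and 22.8, 37.5 and 31.1 in MEF. R1 lay above the others. The difference was -0.47 in iPS against R1 (adjusted p = 0.0477, limma) and 0.65 in R1 against MEF, neither called. Mir34a passed the signal threshold through R1 alone, so some difference was built into its choice.

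The members were set beside the genes that contain them. A host gene on the same strand was measured for 37 members, with 30 distinct hosts. The host was called for 15 of them in iPS against MEF and 15 in R1 against MEF, beside 12.7% and 13.5% of all genes. Some of these share a host, such as Mir106b, Mir25 and Mir93 in Mcm7. Of the microRNA genes with a called host, 0 and 1 were called. Slit2, an axon guidance ligand, fell by 2.99 in iPS and fell by 3.65 in R1, and Mir218-1 within it differed by -0.83 and -1.01. Some difference of Mir218-1 was built into its choice, since it passed the signal threshold through MEF alone. Igf2, the imprinted growth factor gene, fell by 3.34 in iPS and fell by 3.92 in R1, while Mir483 within it differed by 0.08 and -0.02. Copz2, a coatomer subunit, fell by 2.75 in iPS and fell by 2.88 in R1, and Mir152 differed by 0.02 and -0.03. Across the 37 members the difference of the gene and that of its host correlated with r = 0.53, 0.58 and 0.46 in the 3 comparisons, where the points share arrays and some share a host.

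The genes of microRNA processing and control were set beside the members. Of 25 measured, 4 rose in iPS against MEF and the same 4 rose in R1 against MEF, beside 12.7% and 13.5% of all genes called and 5.08% and 5.56% called higher, and nothing is read from so small a count. None was called lower. By the adjusted p alone 16 were higher in each comparison against MEF, beside 24.8% and 25.9% of all genes. By the same rule 5 in iPS and 4 in R1 were lower, beside 23.2% and 23.0% of all genes. Limma called none in iPS against R1, where 4 had an unadjusted p under 0.05. Lin28a, which blocks the processing of let-7 precursors, had 897.6, 855.1 and 792.4 in iPS and 809.0, 724.1 and 776.0 in R1, against 123.6, 57.3 and 70.0 in MEF. It rose by 3.17 ± 0.19 in iPS and by 3.03 ± 0.19 in R1. Lin28b, its paralogue, had 227.5, 224.4 and 218.3 in iPS and 156.5, 153.3 and 167.7 in R1, against 35.8, 28.8 and 29.0 in MEF. It rose by 2.35 ± 0.06 and 1.89 ± 0.06, and iPS lay above R1 without overlap, by 0.45 ± 0.06 (adjusted p = 0.003, limma).

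Trim71, a let-7 target and RNA-binding ubiquitin ligase, had 1584.7, 1618.0 and 2005.9 in iPS and 1951.0, 2019.8 and 1795.3 in R1, against 107.6, 104.0 and 119.4 in MEF. It rose by 3.79 ± 0.09 in iPS and by 3.94 ± 0.09 in R1. Drosha, the nuclear enzyme that cuts primary transcripts, had 1640.6, 1734.1 and 1640.6 in iPS and 1530.7, 1509.7 and 1710.3 in R1, against 734.2, 739.3 and 709.2 in MEF. It rose by 1.18 ± 0.06 and 1.10 ± 0.06, with stem cell arrays above all MEF arrays. Its partner Dgcr8 differed by 0.40 and 0.26, Xpo5 by 0.25 and 0.19, Dicer1 by 0.12 and 0.21, and Ago2 by -0.40 and -0.29, and none of these was called.

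**Figure D5:**
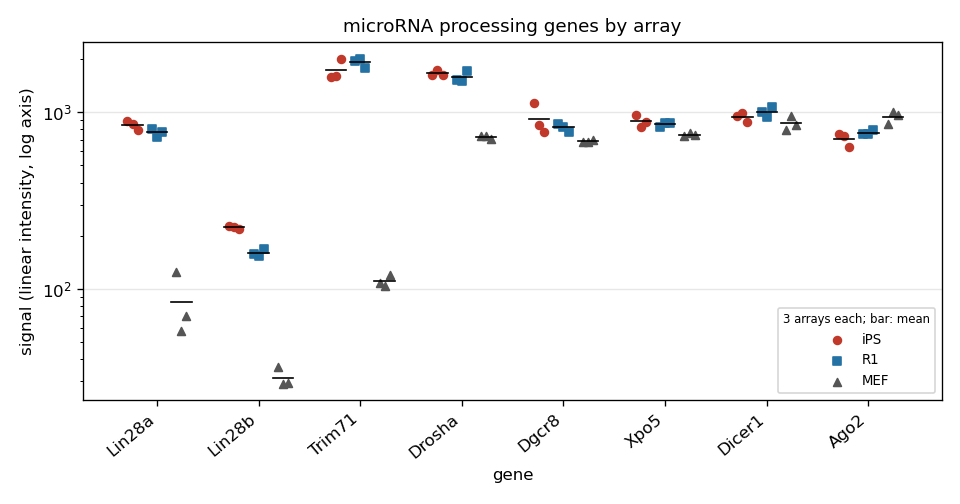
Signal (linear intensity, log axis) of 8 microRNA processing genes in each array, with iPS as circles, R1 as squares, MEF as triangles and bars for group means. Lin28a, Lin28b, Trim71 and Drosha lie higher in iPS and R1 than in MEF without overlap, and for Ago2 MEF lies highest.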

How the data were processed

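The deposited table gives 1 linear intensity per probe set for each array. GCOS 1.4 is named, without a role, per the submitters' processing notes. How the authors corrected background, summarized and normalized the deposited intensities is not given in the sources used here. Array medians lay between 78.2 and 83.3, so no further normalization was applied. The platform annotation gave 1 symbol for 21789 of 35557 probe sets, several for 1621 and no entry for 12147. For a gene with several probe sets the one with the highest mean was used, and no member had several. Detection calls were not used, and low signals may be background.

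Differences of log2(signal + 16) were fitted in limma 3.58.1 (R 4.3.3) over all 9 arrays, with a mean per group and adjusted p-values over 19938 genes, and the fit was tested on simulated data. Named genes were the 8 largest called increases and decreases per comparison, the members of 9 clusters and families, the 6 highest signals per group, the genes nearest the threshold, hosts and processing genes. Others were named after their values were seen, as were the alternatives on the Dlk1-Dio3 counts. The members and lists were chosen with earlier results of these data known. Sequences and coordinates are from RefSeq (GRCm38.p6).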

Additional observations from a re-analysis of the deposited data

Results flagged for a closer look

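The effect against MEF differed between iPS and R1 for 4 members, as tested by the difference of iPS against R1 in the limma fit over all genes. Mir302b was higher in iPS than in R1 by 1.69 and Mir302c by 1.25 on the log2(signal + 16) scale, and these calls were kept without any single array. With 50 added to the signal in place of 16 the difference was 1.01 for Mir302b and 0.72 for Mir302c, and the call of Mir302c was lost. Mir380 differed by -1.05 and Mir300 by -1.01, so both were lower in iPS than in R1. The calls of Mir380 and Mir300 were lost with 50 added, at -0.76 and -0.74. They were lost without iPS replicate 2, at -0.88 and -0.76, and also without R1 replicate 1 or R1 replicate 3. Groups of 3 arrays were too small for the test of single outlying arrays.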

How the results depend on the processing

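Counts are given for iPS over MEF, R1 over MEF and iPS over R1, in that order. The called members numbered 19, 16 and 4, with log2(signal + 50) 8, 9 and 1, with no minimum difference 70, 57 and 19, and with the threshold of 50 required in every group 7, 4 and 2. With a threshold of 100, 2 were called in iPS against R1. Over all measured microRNA genes the counts with log2(signal + 1) were 33 in iPS against MEF and 7 in iPS against R1, with log2(signal + 50) 8, 9 and 1, and with no minimum difference 100, 82 and 23. Processing genes past the adjusted p alone numbered 21, 20 and 3. Over fits that each dropped 1 array there were 14 to 21, 15 to 17 and 2 to 5 called members, 16 to 23, 15 to 19 and 2 to 5 called microRNA genes, and 4, 4 and 0 called processing genes. Dlk1-Dio3 genes lower by the adjusted p alone then numbered 16 to 23 in iPS against MEF and 2 to 12 in iPS against R1, and 6 in iPS against R1 when only those groups were fitted. Quantile normalization, median centring, an intensity trend and the mean of all probe sets of a gene left the counts of called members within 1.5 times. The replicate numbers are shared by the groups, but deviations of same-numbered arrays correlated at -0.08 to 0.24 and 4 of 9 arrays correlated best with their own number, so they were not taken as pairs; with a replicate block 19, 16 and 4 members were called. Over the named genes no alternative turned the sign of a called difference. Of 3243 gene values 42 lost a call and 28 changed sign, the sign changes all for genes with a difference of at most 0.14 in size.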
